A study of Mus musculus with 12 samples.

Results

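AP-1 is a family of dimeric transcription factors, and its genes are the best known of the immediate early genes, which are transcribed within minutes of a stimulus without new protein synthesis. The 10 genes described here were taken by name: the Fos subunits Fos, Fosb, Fosl1 and Fosl2, the Jun subunits Jun, Junb and Jund, and the stimulus-induced genes Egr1, Atf3 and Ier2. Each name matched 1 Ensembl gene of the 39179 in the deposited table. All 10 passed the filter on low values, 4 or more in a minimum of 6 libraries, as did 16197 genes in all.

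The libraries were made from poly-A RNA of prostates of mice aged 4 months of a hybrid strain (129/SvImJ and C57Bl/6J), all of them treated with paraquat, a redox-cycling herbicide and source of superoxide. There were 6 libraries from wild-type mice and 6 from mice null for the gene under study. Untreated libraries were not analysed here, and the values do not show what paraquat did to these genes. Values are deposited normalized log2 values, 1 per gene and library, and each difference is null minus wild type on that scale. Linear levels, folds and shares were computed as if these were plain log2 values. They are approximate, because only high values fitted scaled whole counts and differences of low genes are understated.

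Libraries 1 to 3 and libraries 4 to 6 of each genotype formed closely similar sets. Pairs of libraries in 1 set differed by a median of 0.08 to 0.14, and pairs from different sets with equal genotype by 0.27 to 0.35. The labels name no animal for a library, and p-values therefore measure only the spread among these libraries, which may be technical. Tests were made by library (limma, 12 libraries) and by set (limma, 4 set means), and each SE is that of the fit by set. A gene is said to have risen or fallen only where the adjusted p was under 0.05 in both. Depth recovered from the high values was 14.8 to 21.7 M reads per library. The prostate secretory genes Pbsn and Msmb were high with either genotype, at 18.4 and 15.7 in wild type against 11.1 and 12.8 in null prostates. Summed over the linear values of 8 luminal genes, the level was 20.59 to 21.10 in wild-type and 17.59 to 17.74 in null libraries. Besides secretory genes, these included Krt8, Krt18 and Hoxb13. By library 7 of the 8 were called lower, and Krt8 was not called (-0.29, adjusted p = 0.0617). Markers of other tissues and cells also differed between genotypes. Their calls are given by library, where 34.1% of all tested genes were called higher and 31.8% lower. By set 2 luminal genes were called lower, and 5 seminal vesicle, 2 basal and 2 adipocyte genes higher. Of the macrophage and leukocyte, endothelial, fibroblast and smooth muscle genes, 0 were called by set. For 8 seminal vesicle genes, with all 7 tested called higher, the summed level was 5.87 to 7.85 in wild-type and 16.83 to 21.42 in null libraries. Svs3a, Svs3b, Svs6 and Pate4 among them had wild-type means of 2.75 to 3.09, near the median of 1.98 of the genes at the floor of the table. All 7 tested seminal vesicle genes had a wild-type set mean under 4. They therefore passed the filter only because their null libraries were high, which favoured a call of higher. The 5 adipocyte genes, all called higher, summed to 8.75 and 9.51 in the wild-type sets and 10.47 and 10.94 in the null sets. Plin1 and Lep among them had means of 3.998 and 3.70 in wild-type libraries 1 to 3. Both passed the filter only with their null libraries, which again favoured a call of higher. The 8 macrophage and leukocyte genes (4 higher) summed to 10.45 to 10.65 and 10.98 to 11.40. The 6 endothelial genes (5 higher, 1 lower) summed to 10.46 to 10.71 and 10.84 to 11.47, and the 6 fibroblast genes (6 higher) to 13.34 to 13.63 and 13.80 to 14.10. The 6 basal epithelial genes (5 higher, 1 lower) summed to 11.73 to 12.11 and 12.48 to 12.90, and the 6 smooth muscle genes (4 lower) to 16.48 to 16.81 and 16.13 to 16.71. In such bulk tissue, fewer cells of a type and less RNA per cell cannot be told apart, and the part of these cells in the results below was not tested.

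Jun proteins pair with one another or with Fos proteins through a leucine zipper. The sites that they bind match TGANTCA, in which N stands for any base, though not every match is such a site. Fos proteins need a Jun partner. Transcription of several of these genes is switched on through serum response factor and its ETS partners, which are phosphorylated by ERK and other kinases. Factors of the CREB and ATF families also act on them, at sites that match TGACNTCA or the shorter TGACG. Jun kinases phosphorylate Jun, and Jun bound to a TGACATCA element in its own promoter sustains its transcription. In epithelia these factors respond to growth factors, oxidants, wounding and tissue handling.

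The promoters of Jun and Atf3, which both fell, are shown beside those of Junb and Fos, which did not pass both tests. Each is the stretch of 250 bases before the RefSeq start site (GRCm38.p6), written 5′ to 3′ on the strand of the gene, with matches to TGANTCA, TGACNTCA or TGACG on either strand in capitals. The windows are chr4:95052223-95052472 (minus strand) for Jun, chr1:191183334-191183583 (minus) for Atf3, chr8:84978749-84978998 (minus) for Junb and chr12:85473640-85473889 (plus) for Fos.
Jun: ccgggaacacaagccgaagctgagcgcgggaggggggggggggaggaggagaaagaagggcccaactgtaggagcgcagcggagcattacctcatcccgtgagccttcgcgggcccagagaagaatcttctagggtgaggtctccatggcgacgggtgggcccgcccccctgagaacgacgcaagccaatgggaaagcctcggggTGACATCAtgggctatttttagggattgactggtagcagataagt
Atf3: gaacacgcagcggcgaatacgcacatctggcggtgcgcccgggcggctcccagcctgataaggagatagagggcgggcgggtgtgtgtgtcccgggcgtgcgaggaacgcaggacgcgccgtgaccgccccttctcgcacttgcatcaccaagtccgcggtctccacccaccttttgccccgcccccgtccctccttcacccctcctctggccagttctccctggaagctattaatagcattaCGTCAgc
Junb: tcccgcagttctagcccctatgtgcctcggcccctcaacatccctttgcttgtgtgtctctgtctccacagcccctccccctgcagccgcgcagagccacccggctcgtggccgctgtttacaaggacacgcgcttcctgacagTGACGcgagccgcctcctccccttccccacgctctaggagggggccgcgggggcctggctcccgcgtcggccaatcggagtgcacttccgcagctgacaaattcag
Fos: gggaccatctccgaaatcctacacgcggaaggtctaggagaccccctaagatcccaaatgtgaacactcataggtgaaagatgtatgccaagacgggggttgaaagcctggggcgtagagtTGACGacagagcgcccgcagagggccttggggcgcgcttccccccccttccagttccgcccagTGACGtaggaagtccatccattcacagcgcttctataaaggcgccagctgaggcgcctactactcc

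Jun held TGACATCA, whose first base lay 45 bases upstream of the start. The others held TGACG without a match to TGACNTCA: Fos at 129 and 66 bases upstream, Junb at 106, and Atf3 on the opposite strand (CGTCA) at 7 bases upstream. RefSeq gave a promoter for 7 of the 10 genes, also Fosb, Fosl2 and Jund, and none for Fosl1, Egr1 and Ier2. TGACG was present in 4 of the 7 (Fos, Fosb, Junb and Atf3), against 17.8% of all 32851 promoter windows of that length. TGACNTCA was present in 1 of the 7, against 7.49%. Neither TGANTCA (6.75% of windows) nor the CArG box of serum response factor (1.47%) was found in these 7 windows. Sites more than 250 bases upstream were not searched, so this does not show that any of these genes, Fos among them, lacks either element. The RefSeq start lay 34706 bases downstream of the first GENCODE start for Atf3, 671 bases downstream for Fosl2 and 1210 bases upstream for Jund, so these windows may miss the promoter in use. The Atf3 window lies inside the annotated gene, and its RefSeq start is 7 bases from an annotated exon start. A match is a description of these letters and not evidence of a bound factor.

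Of the 10 genes, 3 were called higher and 3 lower in the null by library, where 65.9% of all tested genes were called. By set 2 rose (Egr1 and Fosl2) and 2 fell (Jun and Atf3), where 4.09% of tested genes were called. Libraries of the genotypes did not overlap for 6 of the 10, 3 with the null higher and 3 with it lower, against 44.2% of tested genes (21.5% and 22.7%). An absolute difference of at least 1 was found for 4 of the 10 and for 16.7% of tested genes. The median absolute difference was 0.76 over the 10 genes and 0.48 over all tested genes, and the signed medians were 0.01 and 0.05. The genes did not move one way as a group. With either wild-type set left out, none of the 4 passed by set (adjusted p from 0.0521 to 0.272), and Atf3 did not pass without null libraries 1 to 3 either (adjusted p = 0.0755).

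**Figure D1:**
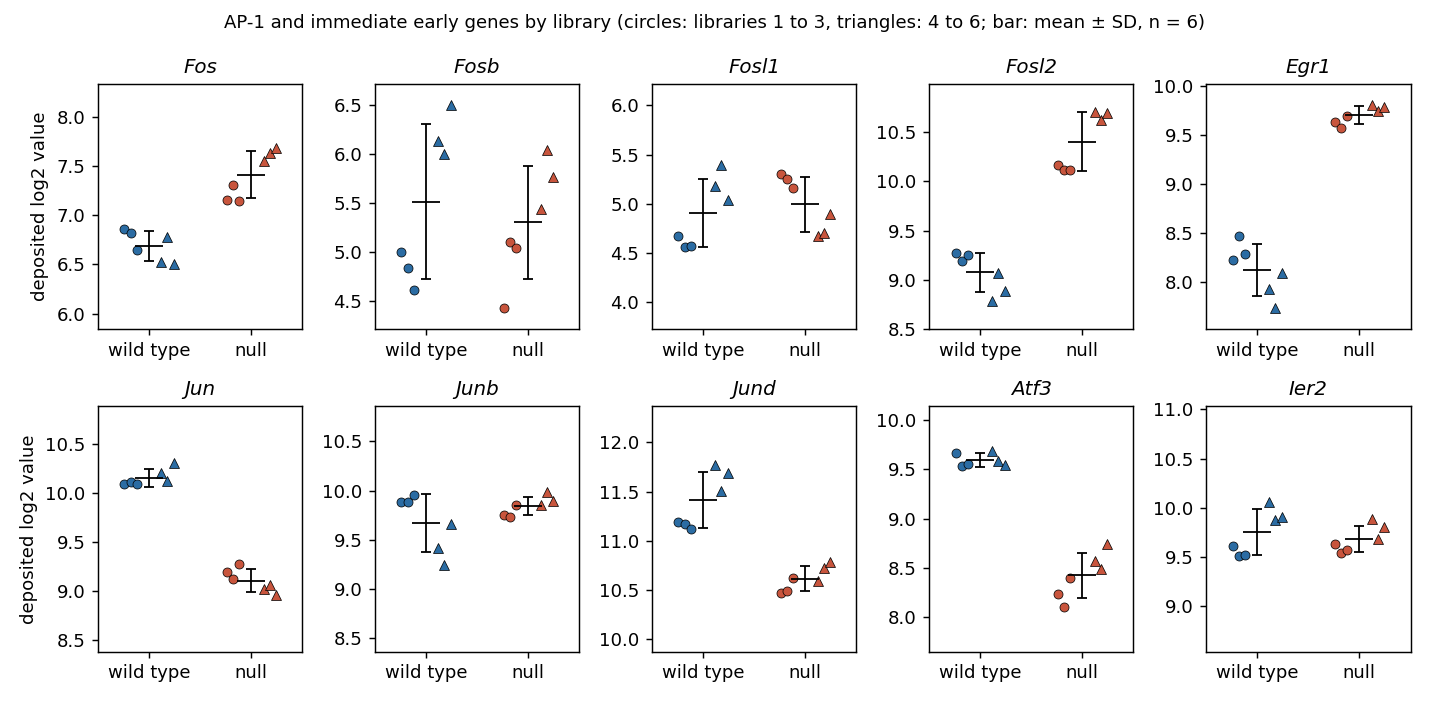
Deposited log2 values of the 10 genes in the 6 wild-type and 6 null libraries, with circles for libraries 1 to 3, triangles for libraries 4 to 6 and a bar for the mean ± SD (n = 6); every panel spans the same range of log2 units but starts at a different level. The genotypes do not overlap for Fos, Fosl2, Egr1, Jun, Jund and Atf3, whereas for Fosb the sets of 1 genotype differ by more than the genotypes do.

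Among the Fos genes, Fosl2 rose. Fosl2 (ENSMUSG00000029135, GRCm38 chromosome 5, 32135801 to 32157842, plus strand) encodes Fra-2, a Fos protein without the strong transactivation domain of Fos. Wild-type libraries ranged from 8.78 to 9.27 with a median of 9.13, and null libraries from 10.12 to 10.71 with a median of 10.40. Every null library was thus above every wild-type library. Set means were 9.24 and 8.91 in wild type and 10.14 and 10.68 in the null, so the sets differed from each other in both genotypes. Fosl2 rose by 1.33 (SE 0.25, adjusted p = 3.07e-06 by library and 0.0436 by set), a 2.52-fold higher linear level. With the trend over transcript length removed it stood at 0.85 and no longer passed by set (adjusted p = 0.112). Its longest annotated transcript, of 6537 bases, is the longest of the 10 genes.

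Fos itself, the founding subunit, was called by library only. Wild-type libraries ranged from 6.50 to 6.86 (median 6.72) and null libraries from 7.15 to 7.68 (median 7.43). The groups did not overlap, and the highest wild-type library lay closer to the lowest null library than the null sets lay to each other. The difference was 0.73 (SE 0.29, adjusted p = 0.000216 by library and 0.156 by set). Its level was in the lower part of the range, as 33.1% of tested genes had a lower mean.

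Fosb and Fosl1, the latter encoding Fra-1, had the lowest means of the 10 genes, and neither was called. Fosb was at 4.61 to 6.50 in wild-type and 4.43 to 6.04 in null libraries, a difference of -0.21 (SE 0.56, adjusted p = 0.813 by set). Fosb was higher in libraries 4 to 6 than in libraries 1 to 3 in both genotypes, by 1.39 in wild type and 0.89 in the null. Fosl1 was at 4.56 to 5.39 in wild-type and 4.67 to 5.30 in null libraries, a difference of 0.09 (SE 0.38, adjusted p = 0.879). Its sets went opposite ways, libraries 4 to 6 being 0.60 higher than libraries 1 to 3 in wild type and 0.48 lower in the null. Ccdc85b, which overlaps Fosl1 on the opposite strand, had a mean of 9.07, and with no strand setting stated, the Fosl1 values may hold reads of Ccdc85b.

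Among the Jun genes, Jun fell. Jun (ENSMUSG00000052684, chromosome 4, 95049034 to 95052222, minus strand) encodes c-Jun, the strongest activator of the family. Wild-type libraries lay between 10.09 and 10.31 (median 10.11) and null libraries between 8.96 and 9.28 (median 9.09). The groups were well apart beside SDs of 0.09 and 0.12. Set means were 10.10 and 10.21 in wild type and 9.20 and 9.02 in the null. Jun fell by 1.05 (SE 0.19, adjusted p = 4.09e-08 by library and 0.0392 by set), so that its linear level was 2.07-fold higher in wild type. By set it was not called when libraries were scaled to their totals (-0.73, adjusted p = 0.0579), to totals without the 50 most abundant genes (-0.90, adjusted p = 0.0652), or without the filter (-1.05, adjusted p = 0.0583). Junos, annotated antisense to Jun, was at 5.94 ± 0.24 in wild-type and 5.28 ± 0.35 in null libraries (SD, n = 6), a difference of -0.65 (adjusted p = 0.00552 by library and 0.264 by set).

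Jund, the subunit that is expressed steadily in most resting cells, was lower by library only. It was at 11.12 to 11.77 in wild type (median 11.35) and 10.47 to 10.78 in the null (median 10.61), without overlap. Wild-type libraries 4 to 6 were 0.49 above libraries 1 to 3, which is more than the SD of 0.12 among null libraries. The difference was -0.80 (SE 0.23, adjusted p = 7.63e-05 by library and 0.0959 by set).

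Junb, a weaker activator that can oppose Jun, was not called in either test. It was at 9.24 to 9.95 in wild-type and 9.73 to 9.98 in null libraries, a difference of 0.17 (SE 0.22, adjusted p = 0.204 by library and 0.613 by set). Wild-type libraries 1 to 3, at a mean of 9.91, were close to the null sets at 9.78 and 9.91, and wild-type libraries 4 to 6 were lower at 9.44. Prdx2 overlaps the annotated Junb gene on the opposite strand at a mean of 11.32, and its difference was -0.71 (adjusted p = 0.000754 by library and 0.138 by set), opposite in sign to that of Junb. Reads from the stretch that both genes share cannot be told apart without strand, and the length of that stretch was not computed.

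**Figure D2:**
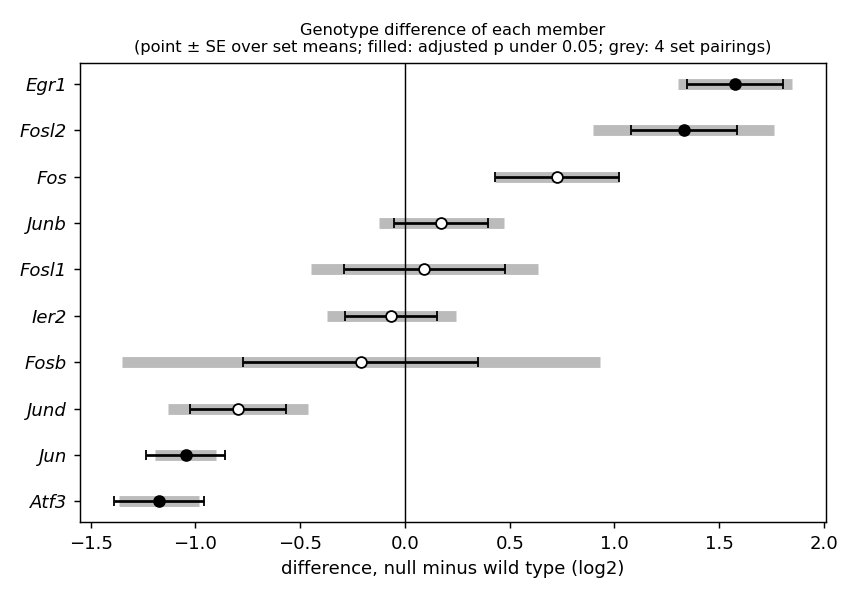
Difference in log2 value (null minus wild type) of each gene, as a point with the SE from the fit over 4 set means, filled where the adjusted p was under 0.05, over a grey bar from the lowest to the highest of the 4 possible differences between null and wild-type set means. Egr1, Fosl2 and Fos lie right of 0 and Jun, Atf3 and Jund left of 0 in every such difference. The bars of Fosb, Fosl1, Junb and Ier2 cross 0.

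Outside AP-1 proper, Egr1 rose. Egr1 (ENSMUSG00000038418) encodes a zinc finger factor that is induced through serum response factor and ERK signalling and binds GC-rich promoters. Wild-type libraries ranged from 7.74 to 8.47 (median 8.16) and null libraries from 9.57 to 9.80 (median 9.72). The null libraries lay close together, and the lowest was more than 1 above the highest wild-type library. Egr1 rose by 1.58 (SE 0.23, adjusted p = 1.00e-07 by library and 0.0230 by set), a 2.98-fold higher linear level. This was the largest absolute difference among the 10 genes, exceeding that of 94.5% of tested genes. It ran from 1.301 to 1.89 under the other scalings and removal of the length trend, and passed by set in each (adjusted p from 0.00995 to 0.0298).

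Atf3 fell. Atf3 (ENSMUSG00000026628, chromosome 1, 191170296 to 191218039, minus strand) encodes a stress-induced bZIP protein that pairs with Jun proteins and, as a homodimer, represses transcription. Wild-type libraries were at 9.53 to 9.69 (median 9.57) and null libraries at 8.10 to 8.74 (median 8.44). The wild-type SD of 0.07 was the smallest of the 10 genes, and null libraries 4 to 6 were 0.36 above libraries 1 to 3. Atf3 fell by 1.17 (SE 0.22, adjusted p = 5.63e-07 by library and 0.0414 by set), and its linear level was 2.26-fold higher in wild type. By set the call was lost with library totals (-0.86, adjusted p = 0.0594), totals without the 50 most abundant genes (-1.03, adjusted p = 0.0591) and no filter (-1.17, adjusted p = 0.0501).

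Ier2, a small nuclear protein gene induced with Fos and Egr1 in many cells, was not called in either test. It was at 9.51 to 10.06 in wild-type and 9.54 to 9.89 in null libraries, a difference of -0.07 (SE 0.22, adjusted p = 0.594 by library and 0.851 by set). In both genotypes libraries 4 to 6 were above libraries 1 to 3, by 0.41 in wild type and 0.21 in the null. For 4 of the 10 genes (Fosb, Fosl1, Junb and Ier2) a difference between sets of 1 genotype exceeded the difference between genotypes.

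Differences between genes within a library, here on the log2 scale per kilobase of the longest annotated transcript, are free of any shift shared by its deposited values. They are not exact ratios of counts, since differences of low genes are understated on the deposited scale. Egr1 minus Jun was -2.52 ± 0.30 in wild-type and 0.10 ± 0.19 in null libraries (SD, n = 6). Egr1 was thus below Jun in all 6 wild-type libraries, and above it in 3 null libraries and below it in 3. Fosl2 minus Jun went from -2.12 ± 0.28 to 0.26 ± 0.41, again with 3 null libraries on each side of 0. Junb minus Jun was 0.33 ± 0.33 and 1.55 ± 0.18, so Junb was above Jun in 5 of 6 wild-type and 6 of 6 null libraries. The genotypes did not overlap in these 3 differences. Atf3 minus Jun was at 0.13 ± 0.12 and 0.00 ± 0.32, and its libraries overlapped. These pairs were chosen with the values known and are given without a test.

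Levels of different genes were compared per kilobase of the longest annotated transcript, on the log2 scale. In wild type Jund was highest at 10.67, followed by Ier2 (9.14), Junb (8.82), Atf3 (8.61) and Jun (8.48), then Fosl2 (6.37), Egr1 (5.96) and Fos (5.61), with Fosl1 (4.01) and Fosb (3.59) last. Neighbours from Ier2 down to Jun, from Fosl2 down to Fos, and the last pair overlapped in their libraries, so their order is not fixed beyond the spread. In the null Jund (9.88), Ier2 (9.08) and Junb (8.99) kept the first places. Fosl2 (7.70), Egr1 (7.54), Jun (7.43) and Atf3 (7.43) came next with overlapping libraries, and Fos (6.34) stood apart from Fosl1 (4.10) and Fosb (3.38). The gap between the Jun level and the Fosl2 and Egr1 levels seen in wild type was thus not present in the null.

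The make-up of each family was computed as the share of its summed linear level per kilobase. Fosl2 made up 51.1% ± 5.53 of the Fos family in wild-type and 65.4% ± 2.46 in null libraries (SD, n = 6), and the libraries did not overlap. Fos took 30.2% ± 1.97 and 25.5% ± 1.11, with overlap. In the Jun family, Jun made up 14.5% ± 0.92 in wild type and 10.7% ± 1.29 in the null, and Junb 18.9% ± 5.21 and 31.3% ± 0.71, both without overlap. Jund remained the most abundant Jun transcript, at 66.5% ± 6.05 and 58.0% ± 1.57. Wild-type sets differed in the Junb share, at 23.6% in libraries 1 to 3 and 14.3% in libraries 4 to 6, whereas the null sets were at 31.3% and 31.4%. Over all 7 subunits the Fosl2 share was 3.22% ± 0.74 in wild type and 10.79% ± 1.59 in the null. The summed log2 level per kilobase of the 4 Fos genes was 7.34 ± 0.08 in wild type and 8.31 ± 0.25 in the null, and that of the 3 Jun genes 11.27 ± 0.16 and 10.66 ± 0.09. Both sums were without overlap and in opposite directions. All these shares are approximate, and those of Fosb and Fosl1 the most uncertain, since differences of low genes are understated on the deposited scale.

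**Figure D3:**
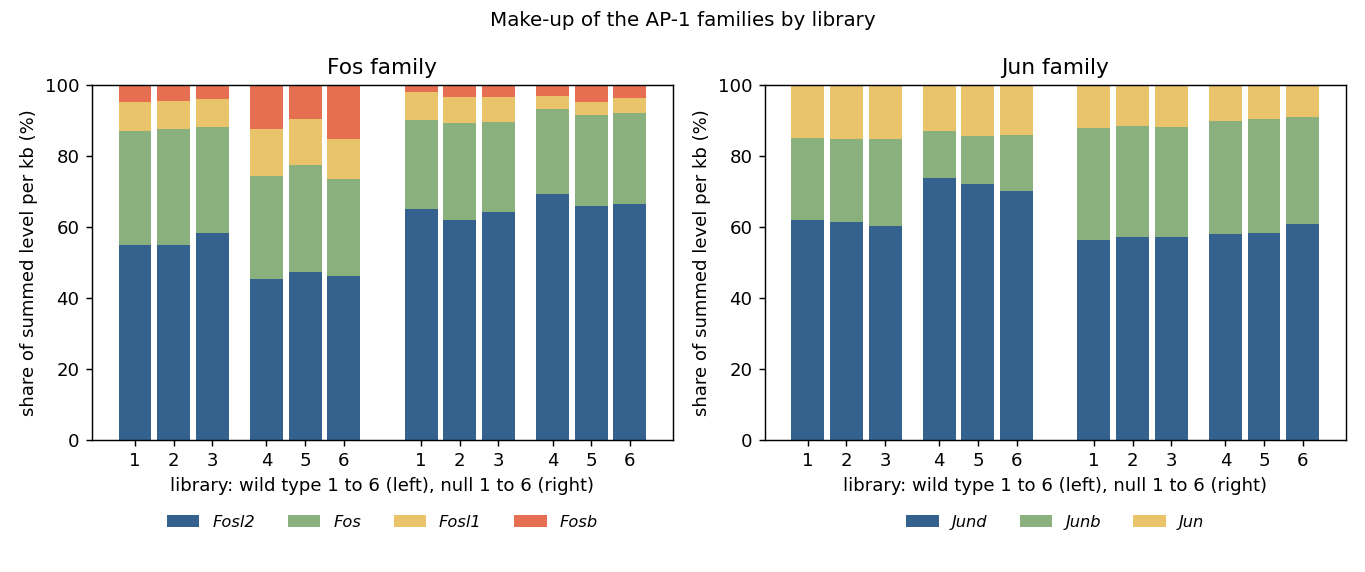
Share of each gene in the summed linear level per kilobase of the Fos family (left) and of the Jun family (right), as 1 stacked bar per library, with wild-type libraries 1 to 6 and then null libraries 1 to 6. The Fosl2 part is larger in every null library (61.8% to 69.1%) than in every wild-type library (45.2% to 58.2%), and so is the Junb part (30.1% to 32.1% against 13.2% to 24.5%).

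Other genes of the pathway were examined as 7 lists of 104 genes, of which 98 could be tested. By library 49 were called higher and 17 lower, against 34.1% and 31.8% of all tested genes, and by set 5 were higher and 1 lower, against 2.15% and 1.93%. The median difference over the 98 was 0.27, and that over all tested genes was 0.05. Of 12 bZIP genes that can partner AP-1 proteins, 3 were higher and 3 lower by library and 0 by set (limma; 3 higher and 2 lower at an unadjusted p under 0.05). Batf3, an AP-1 family factor of dendritic cells, had the largest of these differences at -1.97 (adjusted p = 1.17e-05 by library and 0.0562 by set), from 7.13 ± 0.50 to 5.16 ± 0.34. Maf (0.56) and Mafk (-0.63) were also called by library only.

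Among 12 tested genes for other immediate early transcription factors, 5 were higher and 2 lower by library and 0 passed by set (limma; 4 higher and 2 lower at an unadjusted p under 0.05), with a median of 0.27. Klf10 (0.90), Nr4a3 (3.47) and Ier5 (0.67) were higher, and Nr4a2 (-1.12) was lower. The orphan receptor genes Nr4a2 and Nr4a3 thus differed in sign, and Nr4a3 was uneven in the null, at 10.495 in libraries 1 to 3 and 8.04 in libraries 4 to 6. Egr3 and Egr4 did not pass the filter. Of 21 immediate early effector genes, 14 were higher and 4 lower by library, with a median of 0.41. By set Zfp36l1, which encodes a protein that destabilizes AU-rich messages, rose by 1.74 (SE 0.18, adjusted p = 0.00985), and Plk2, a polo-like kinase gene, rose by 1.83 (SE 0.35, adjusted p = 0.0465). Rhob, encoding a small GTPase, fell by 1.24 (SE 0.24, adjusted p = 0.0499). Btg2 (0.60) and Sgk1 (1.46) were higher by library only (adjusted p = 0.0988 and 0.0575 by set).

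Upstream, 3 of 15 kinase genes of the MAPK cascades were called higher and 4 lower by library, with a median of 0.00. Mapk10, which encodes the Jun kinase JNK3, rose by 2.78 (SE 0.41, adjusted p = 0.0237 by set) from a low level, at 3.75 ± 0.49 in wild-type and 6.54 ± 0.40 in null libraries. Mapk10 passed the filter only because its null libraries were high, which favoured a call of higher. Mapk3, encoding ERK1, and Map2k2 and Map2k3 differed by -0.85, -0.80 and -0.76 and passed by library only. Of 9 genes for factors that act on immediate early promoters, 6 were higher and 1 lower by library and 0 by set (limma; also 0 at an unadjusted p under 0.05). Srf, encoding serum response factor, was that lower gene at -0.34 (adjusted p = 6.41e-05 by library and 0.232 by set), while Stat3 (0.36), Creb1 (0.33) and Mrtfb (0.20) were higher.

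Of 14 genes that dampen the pathway, 9 were higher and 3 lower by library, with a median of 0.42. Dusp6, which encodes a phosphatase of ERK and is itself induced by ERK signalling, rose by 1.34 (SE 0.21, adjusted p = 0.0259 by set), from 8.23 ± 0.13 to 9.57 ± 0.07. Spry2 was at 1.13 and passed by library only (adjusted p = 0.0598 by set). Dusp8 and Dusp10, whose products act on Jun kinases and p38, differed by -1.07 and -0.94 (adjusted p = 0.0806 and 0.102 by set). Of 15 tested target genes of AP-1 or Egr1, 9 were higher and 0 lower by library (limma; also 9 and 0 at an unadjusted p under 0.05), with 6 not called and a median of 0.49. Ccnd1, encoding cyclin D1, rose by 2.12 (SE 0.42, adjusted p = 0.0494 by set), at 12.22 in null libraries 1 to 3 and 10.96 in libraries 4 to 6 against 9.47 ± 0.25 in wild type. Cd44 (1.298), Tnfaip3 (0.62) and Spp1 (3.78) were higher by library only. Spp1, at 3.86 in wild-type libraries 4 to 6, passed the filter only because its null libraries were high, which favoured a call of higher. Mmp3, Mmp10, Mmp13 and Il6 did not pass the filter. The summed level of 8 heat shock genes was 13.73 to 13.87 in wild-type and 12.61 to 13.44 in null libraries. These genes, which are induced by stress as well, had 5 lower and 0 higher by library and 0 called by set (limma; 6 lower by library and 5 lower by set at an unadjusted p under 0.05), with a median of -0.66.

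**Figure D4:**
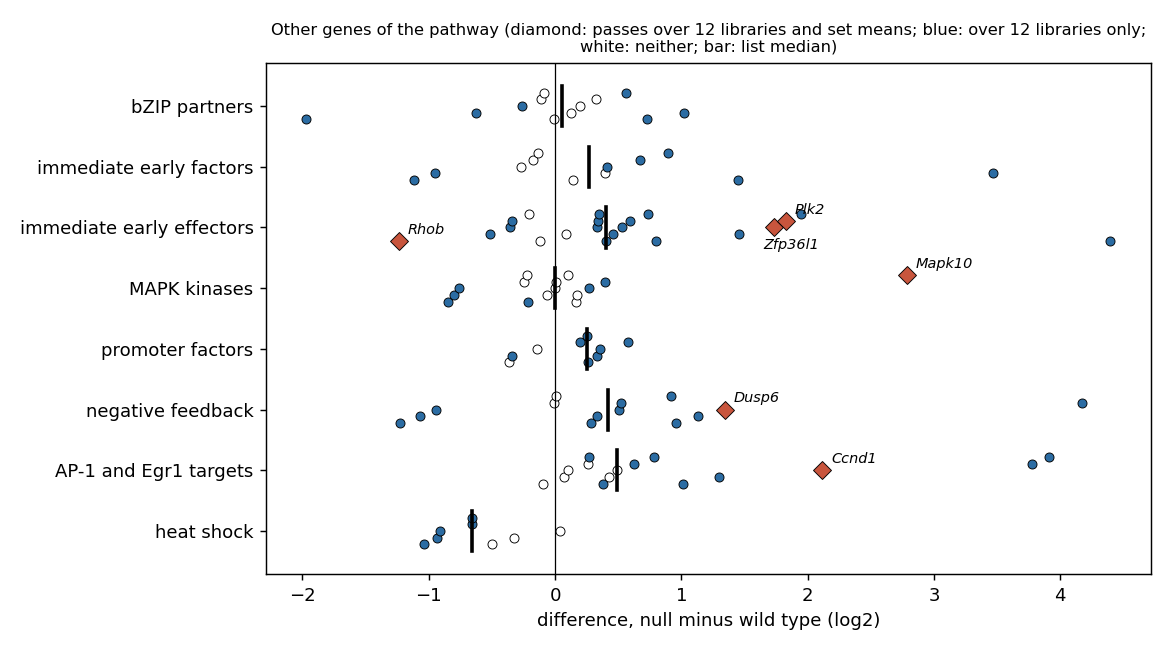
Difference in log2 value (null minus wild type) of each tested gene in the 7 pathway lists and the heat shock list, with diamonds for genes that passed both tests, blue circles for those that passed by library only, white circles for neither and a bar for the list median. The named diamonds are Zfp36l1, Plk2, Mapk10, Dusp6 and Ccnd1 right of 0 and Rhob left of 0, and the medians run from -0.66 for heat shock to 0.49 for target genes.

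For each gene that passed both tests, the tested genes with the most similar pattern were found by the root mean square (RMS) distance of centred values across the 12 libraries. For Egr1, whose own RMS deviation was 0.81, they were Psrc1 (distance 0.11), Ahnak (0.13) and Lama5 (0.13). For Fosl2, at 0.71, they were Prom2 (0.07), Ermp1 (0.09) and Azin1 (0.10). Jun, at 0.53, was nearest to Zbtb10 (0.07), Armcx3 (0.07) and Ankrd24 (0.07), and Atf3, at 0.61, to Slc52a3 (0.09), Il15 (0.09) and Emc6 (0.10). No other gene of the 10 was among these nearest patterns.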

How the data were processed

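RNA-seq of 12 prostate libraries, 6 per genotype, was used. Per the labels' protocols, poly-A RNA was prepared with a TruSeq kit for HiSeq2000, and CASAVA 1.8.2, DESeq, Cufflinks, TopHat, GRCm38.p2 and mm9 are listed, roles unstated, per the submitters' processing notes. The deposited table holds log2 values normalized by the authors. Strand setting and treatment of multi-mapped reads: not given in the sources used here. On the linear scale, high values times a factor per library were whole within 0.1, which gave the read totals; lower values were not, so no count test was run. Differences of low genes are understated.

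limma 3.58.1 (trend, two-sided, R 4.3.3) was fitted over 16197 genes with Benjamini-Hochberg adjustment, over 12 libraries and over the means of 4 library sets, and tested on simulated data. The simulated libraries were independent, whereas the random block fit gave a correlation of 0.824 within sets. The simulation therefore could not show how that similarity affects calls by library. Symbols, positions and lengths came from GENCODE M21 (GRCm38), and promoters from RefSeq; Python 3.11.15 was used otherwise. Members, lists and sets were chosen with earlier results of these data known. Named are all 10 members, up to 4 genes per list with the lowest p, list genes called by set, and the 3 nearest patterns. The gene under study and a few other items are not reported here.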

Additional observations from a re-analysis of the deposited data

How the results depend on the processing

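Egr1, Fosl2, Jun, Atf3, Fos and Jund kept their direction under all alternatives run, of which the fits of set means with a set left out or with another scaling, filter or log scale were chosen after seeing the data. By library these 6 passed in all fits but Fos with the library set as a random block (adjusted p = 0.0696). The counts called higher and lower were 3 and 3 without any 1 library, 6 higher with library totals, 5 lower without wild-type libraries 1 to 3, 2 and 3 with the random block, and 2 and 2 by set. With wild-type libraries 1 to 3 left out of the set means Egr1 was at 1.78 (adjusted p = 0.0521), and without libraries 4 to 6 at 1.37 (adjusted p = 0.149); Fosl2, Jun and Atf3 were not called there either (adjusted p from 0.0786 to 0.272). Atf3 was also not called without null libraries 1 to 3 (adjusted p = 0.0755). These fits leave 1 wild-type or null set, assumed to vary like the other genotype. The genes not called changed sign under some alternatives. Fosb was at 0.10 with library totals, 0.49 without wild-type libraries 4 to 6 and 0.23 without null libraries 1 to 3. Fosl1 was at -0.25 with quantile normalization, -0.21 without wild-type libraries 1 to 3 and -0.15 without null libraries 1 to 3. Junb was at -0.063 without wild-type libraries 4 to 6. Ier2 was at 0.25 with library totals, 0.082 with totals without the 50 most abundant genes, 0.012 with upper-quartile centring, 0.011 with quantile normalization, 0.10 with the length trend removed, 0.14 without wild-type libraries 4 to 6 and 0.039 without null libraries 1 to 3. Fits by set gave the same signs. By library Junb was called higher with library totals (0.49) and with totals without the 50 most abundant genes (0.32). Junb was also called higher without wild-type libraries 1 to 3 (0.41). Fosl1 (0.41) and Ier2 (0.25) were called higher with library totals. Fosb (-0.91) and Ier2 (-0.27) were called lower without wild-type libraries 1 to 3.

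Library totals moved the median of all tested genes from 0.05 to 0.37. Relative to the median of each scaling, Egr1 ran from 1.37 to 1.59, Fosl2 from 0.93 to 1.42, Jun from -1.10 to -0.96 and Atf3 from -1.23 to -1.01. Of all genes, 5518 were called higher and 5152 lower, against 8611 and 2608 with library totals, 6804 and 4034 with totals without the 50 most abundant genes, and 3989 and 6031 with the length trend removed. The random block called 5052 and the set means 662, or 1941 after library totals and 6 to 3199 with a set left out. No paired analysis was possible because the labels give no replicate numbers shared by the genotypes.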

Other observations

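Some inducible genes of the lists differed more between the null sets than between genotypes, and were picked out here after their values were seen. Ptgs2, encoding the prostaglandin synthase COX-2, was at 12.37 in null libraries 1 to 3 and 5.06 in null libraries 4 to 6, with wild-type set means of 4.88 and 3.76. Plau, encoding urokinase, was at 14.11 and 7.36 in the null sets and 6.78 and 6.86 in wild type. Dusp4, a phosphatase gene, was at 10.10 and 5.55, against 3.64 and 3.68. Ptgs2 and Dusp4 passed the filter only because their null libraries were high. Of the 10 AP-1 and immediate early genes, the 4 that rose or fell did not share this split. The null sets of Egr1 were at 9.63 and 9.77 and those of Fosl2 at 10.14 and 10.68. Those of Jun were at 9.20 and 9.02 and those of Atf3 at 8.24 and 8.60. The summed seminal vesicle level was also uneven, at 21.41 in null libraries 1 to 3 and 16.84 in libraries 4 to 6, and its part in these values was not tested.

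Egr2, likewise picked out with its values known, had means of 4.56 ± 0.45 in wild-type and 6.01 ± 0.74 in null libraries (SD, n = 6), a difference of 1.45 (adjusted p = 0.00159 by library and 0.120 by set). Arc, another immediate early gene, was at 5.45 ± 0.83 and 7.399 ± 0.33, a difference of 1.95 (adjusted p = 0.000222 and 0.0808). Nab1, whose product represses Egr1, differed by 0.52 (adjusted p = 9.40e-05 and 0.144), while Nr4a1 differed by -0.13 and was not called (adjusted p = 0.301 and 0.709).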
